A study of Homo sapiens with 6 samples.

Results

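The genes described here are those of the caveolins and cavins, the proteins that build caveolae. They were chosen by name: CAV1, CAV2, CAV3, CAVIN1, CAVIN2, CAVIN3 and CAVIN4, each read from an array row that carries its symbol alone. Of these 7 genes, 6 had such a row, out of 18417 genes on the arrays. The row that holds CAV2 carries 2 symbols, so no value is given for CAV2. Each of the other genes had 1 row.

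Caveolae are small flask-shaped pits of the plasma membrane, abundant in muscle, endothelial and fat cells. Caveolins are inserted in the membrane and cluster with cholesterol, and cavins form a coat on its inner face. They serve as a reserve of membrane under stretch and as a platform for signalling proteins. CAV1 and CAV2 are broadly expressed and assemble together, while CAV3 takes the place of CAV1 in skeletal and cardiac muscle. CAVIN1 is needed for caveolae to form, CAVIN2 helps to curve the membrane, CAVIN3 binds a protein kinase C and CAVIN4, also called MURC, is the cavin of muscle fibres. Mutations of CAV3 and CAVIN1 cause muscle disease.

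The cells were RD18, a human line established from embryonal rhabdomyosarcoma, a tumour of cells that resemble immature skeletal muscle. The induced NpBI-22 group comprised 2 biological replicates of RD18 NpBI-22 cells that received 1 µg/ml doxycycline for 6 days, which switches on miR-22, and the non-induced group 2 replicates left untreated. RD18 NpBI-206AS cells, an additional control, were measured once with the same doxycycline treatment and once untreated. The labels do not say what the NpBI-206AS construct expresses or whether either derivative is a single clone, so doxycycline and whatever the construct makes cannot be told apart there. The labels give both induced NpBI-22 arrays the code prefix R715, non-induced replicate 1 the prefix R509, and the other 3 arrays R587, without saying what the prefix means. Induction and that prefix cannot be told apart. The lineage markers MYOD1, MYOG, DES and CHRNA1 lay at or above the 78.0 percentile of all rows on every array, and PAX7 between the 63.3 and 71.5 percentiles. MYF5 read 3.88 to 3.96 on the log2 scale, at the 25.1 percentile or below. MIR22HG, the host transcript of miR-22, read 10.02 and 10.01 in induced NpBI-22 cells and 6.27 to 6.72 on the other 4 arrays.

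The microRNA that was induced is shown with its partner strand because the main comparison rests on it. The capitals mark the seed, bases 2 to 8, through which a microRNA pairs with its target mRNAs. The sequences are those of RefSeq (GRCh38.p14, minus strand), at chr17:1713914-1713935 for the 3p strand and chr17:1713952-1713973 for the 5p strand.
hsa-miR-22-3p: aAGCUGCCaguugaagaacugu
hsa-miR-22-5p: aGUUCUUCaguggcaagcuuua
Neither mature strand was measured on these arrays. Transcript sequences of the caveolin and cavin genes were not used here, so pairing of the seeds with these mRNAs was not analysed.

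The promoter windows of the muscle cavin and the muscle caveolin are shown as well, since the first of these genes changed and the second did not pass the test. Each window runs from 250 bases before to 50 bases after the annotated start (RefSeq, GRCh38.p14). The CAVIN4 window is chr9:100577829-100578128 and the CAV3 window chr3:8733552-8733851, both on the plus strand. Capitals mark the letters CANNTG, the E-box to which myogenic factors such as MYOD1 bind.
CAVIN4: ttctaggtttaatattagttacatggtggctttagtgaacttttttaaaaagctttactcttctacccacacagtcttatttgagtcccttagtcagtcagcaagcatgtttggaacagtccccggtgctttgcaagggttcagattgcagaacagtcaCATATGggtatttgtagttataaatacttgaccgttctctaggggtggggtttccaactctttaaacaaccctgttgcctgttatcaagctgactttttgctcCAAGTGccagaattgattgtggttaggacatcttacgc
CAV3: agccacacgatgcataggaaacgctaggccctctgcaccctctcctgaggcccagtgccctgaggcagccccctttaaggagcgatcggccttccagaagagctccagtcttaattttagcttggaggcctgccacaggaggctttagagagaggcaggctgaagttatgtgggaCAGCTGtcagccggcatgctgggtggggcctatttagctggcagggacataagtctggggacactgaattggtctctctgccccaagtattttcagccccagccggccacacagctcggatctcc
The CAVIN4 window held 2 such matches, one starting 91 bases before the start and the other 13 bases into the transcript. It also held the letters TATAAA, 73 bases before the start, which are found in 11.5% of 35116 windows of this length. The CAV3 window held 1 E-box, CAGCTG, 75 bases before the start. Both windows contained a match to the MEF2 site, a muscle regulatory motif, which is found in 2.99% of all windows, starting 242 bases before the start in CAVIN4 and 140 before it in CAV3. CANNTG itself is common, with a match in 68.7% of windows, and CAGCTG, which is one form of it, occurs in 17.9%. Of the 7 genes, 5 had a window in the RefSeq table. The 3 windows of CAV1 held no match to any of these motifs or to the CArG box, the site of serum response factor, and had GC contents of 61.7% to 71.0% against 41.0% for CAVIN4 and a median of 58.7% over all windows. The CAVIN2 window held 2 E-boxes and 1 of the 2 CAV2 windows held 1. Both strands were searched. A match describes letters in the window and does not show that a factor binds there.

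Induced and non-induced NpBI-22 cells were compared to ask which genes differ once miR-22 is switched on. Among the caveolae genes, the muscle cavin CAVIN4 fell and no other member passed the test. CAVIN4 (row 8156919) read 5.97 and 6.36 on the log2 scale in induced replicates 1 and 2, and 8.27 and 8.45 in the non-induced replicates. Non-induced and induced NpBI-206AS cells read 7.72 and 7.49. Both induced NpBI-22 arrays thus lay below each of the other 4, and untreated NpBI-22 cells were the highest group. The group means were 6.17 ± 0.27 and 8.36 ± 0.13 (SD, n = 2 each), a 4.56-fold lower level after induction (log2 change -2.19, SE 0.19, 95% confidence interval -2.67 to -1.71, limma adjusted p = 0.0183). The lowered level lay at the 53.9 percentile of all rows or above, where the array medians were 5.66 to 5.75. Without detection calls, the readings after induction cannot be told from background signal. The fold may therefore understate the fall of the mRNA. Of the 6 measured members, 1 was thus lower and 0 higher. Across all 33297 rows, 2.01% were lower and 1.59% higher, 669 and 531 rows. With each array centred on its median the split was 574 lower and 718 higher, and CAVIN4 again fell. Leaving out any 1 of the 4 NpBI-22 arrays took the rows that passed in limma to 0, and CAVIN4 had a log2 change between -2.38 and -2.00 (adjusted p 0.107 to 0.403, unadjusted p 0.00087 to 0.0019).

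**Figure D1:**
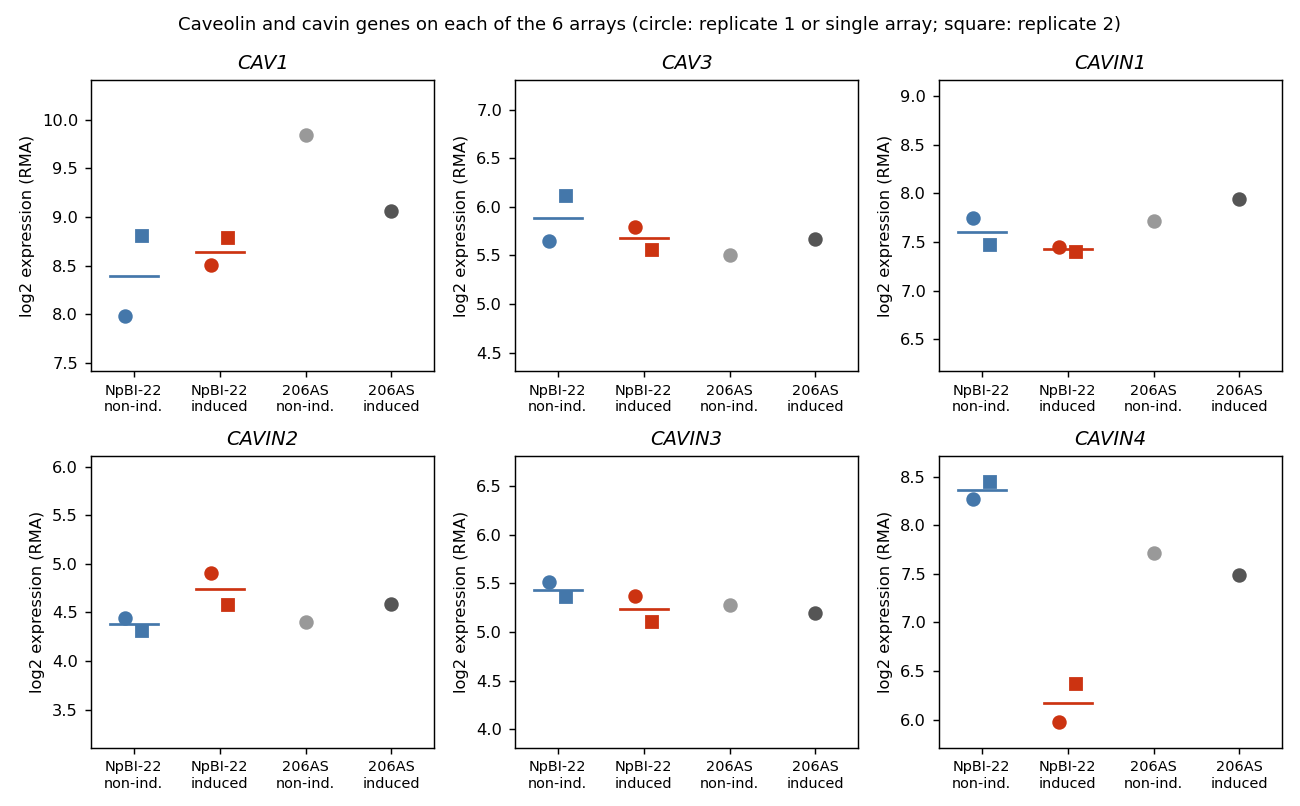
Log2 expression (RMA) of the 6 measured caveolin and cavin genes on each array, by group. Circles mark replicate 1 or a single array, squares replicate 2, and lines the means of 2 replicates. All panels span the same range of 3 log2 units. Both induced NpBI-22 arrays lie at 5.97 and 6.36 for CAVIN4, below the other 4 arrays at 7.49 to 8.45, while the other genes span at most 1.87.

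CAV3, the caveolin of muscle, did not pass the test. It read 5.79 and 5.55 in induced and 5.65 and 6.11 in non-induced NpBI-22 cells. NpBI-206AS cells read 5.50 untreated and 5.67 with doxycycline. The induced NpBI-22 arrays overlapped the non-induced ones, the lowest array was that of untreated NpBI-206AS cells, and the values sat between the 47.3 and 54.9 percentiles of the rows. The log2 difference after induction was -0.21 (SE 0.21, 95% confidence interval -0.73 to 0.32, limma adjusted p = 0.648). The interval leaves room for a fall of up to 0.73 in the reading. The medians of the arrays were 5.66 to 5.75, and there are no detection calls. CAV3 is thus not shown to be above background, so the interval does not exclude a larger fall of its mRNA.

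CAV1, the caveolin of most non-muscle cells, varied mainly among the control arrays. It read 8.50 and 8.78 in induced and 7.98 and 8.80 in non-induced NpBI-22 cells, so that the induced arrays lay between the non-induced ones. NpBI-206AS cells were higher, with 9.85 without doxycycline and 9.06 with it. The log2 difference after induction in NpBI-22 cells was 0.25 (SE 0.30, 95% confidence interval -0.49 to 0.99, limma adjusted p = 0.699), and its sign rests on non-induced replicate 1: without that array it was -0.16. The 2 non-induced NpBI-22 replicates, which have different prefixes, were 0.83 apart.

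Of the remaining cavins, CAVIN1, the cavin common to all caveolae, read 7.45 and 7.40 in induced and 7.74 and 7.46 in non-induced NpBI-22 cells. NpBI-206AS cells read 7.72 untreated and 7.94 with doxycycline. The induced NpBI-22 arrays were the 2 lowest, by a narrow margin, and the difference did not pass (log2 -0.18, SE 0.17, 95% confidence interval -0.60 to 0.24, limma adjusted p = 0.614). CAVIN2, which bends the caveolar membrane, read 4.90 and 4.58 in induced, 4.44 and 4.31 in non-induced NpBI-22 cells, and in NpBI-206AS cells 4.40 untreated and 4.59 with doxycycline. It is the one cavin whose estimate was higher after induction (0.36, SE 0.18, 95% confidence interval -0.08 to 0.81, limma adjusted p = 0.317). Its values lay between the 29.5 and 38.8 percentiles of the rows, little above the lower quartiles of 3.92 to 4.01, and are not shown to be above background. CAVIN3, whose product binds protein kinase C delta, spanned only 0.41 over all arrays, from 5.10 to 5.51. Its difference was -0.20 (SE 0.17, limma adjusted p = 0.587). At the 46.6 percentile of the rows or below, it is not shown to be above background either. Induced and non-induced NpBI-22 arrays did not overlap for CAVIN1, CAVIN2 and CAVIN4, as for 52.4% of all genes with so few arrays.

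**Figure D2:**
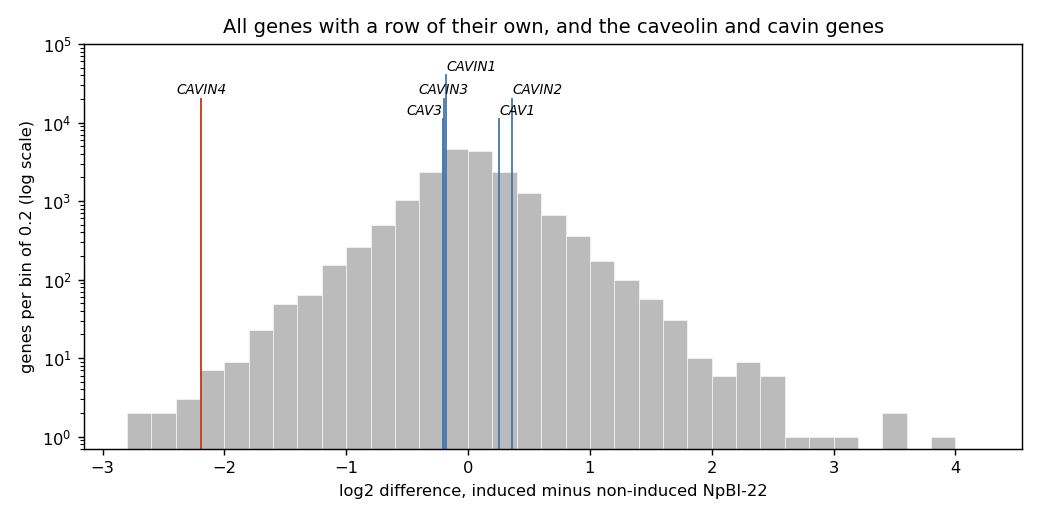
Histogram of the log2 difference between induced and non-induced NpBI-22 cells for 18417 genes, in bins of 0.2 with the number of genes on a log scale, and the 6 caveolin and cavin genes as vertical lines (red: adjusted p under 0.05; the height of a line has no meaning). CAVIN4 lies in the lower tail at -2.19 and the other 5 between -0.21 and 0.36.

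The induced NpBI-22 arrays were next set against all 4 other arrays, since the NpBI-206AS cells served as additional controls. CAVIN4 was again the one member that passed, 3.51-fold lower (log2 -1.81, SE 0.28, limma adjusted p = 0.0071), where 7.43% of all rows were lower and 6.32% higher. Without induced replicate 1 this call was lost (log2 -1.62, adjusted p = 0.0861). Against the 3 control arrays of prefix R587 alone, which leaves out non-induced replicate 1, CAVIN4 was lower by a similar size (log2 -1.72, adjusted p = 0.0074). CAVIN1 was lower on both induced arrays than on any of the other 4, a separation seen for 39.4% of all genes, and did not pass (log2 -0.29, SE 0.15, 95% confidence interval -0.63 to 0.05, adjusted p = 0.249). CAV1 had an estimate of -0.28 here, opposite in sign to the one against its own non-induced cells, with a wide interval of -1.29 to 0.74.

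Doxycycline was present in both arms when induced NpBI-22 cells were compared with the single induced NpBI-206AS array, which is assumed to vary like the other groups. CAVIN4 was 2.50-fold lower in NpBI-22 cells (log2 -1.32, SE 0.24, 95% confidence interval -1.91 to -0.73), which did not pass over all rows (limma adjusted p = 0.0907). Here 0 of 6 members and 0.39% of all rows passed. Unadjusted p was under 0.05 for 2 members, CAVIN4 and CAVIN1, and for 5217 of 33297 rows. When the dimmest 50 percent of rows were left out, CAVIN4 passed (adjusted p = 0.032). CAVIN1 had an estimate of -0.51 (SE 0.21, adjusted p = 0.316). For CAV3 the estimate was 0.01 with an interval of -0.63 to 0.65, for CAVIN3 0.04 (-0.48 to 0.56) and for CAVIN2 0.15 (-0.39 to 0.69).

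In NpBI-206AS cells, the induced array differed from the non-induced one by -0.23 for CAVIN4, 1 array each and so without a test. The difference between this and the NpBI-22 response was -1.96 for CAVIN4 (SE 0.33, 95% confidence interval -2.79 to -1.13). It did not pass after adjustment (limma adjusted p = 0.281), where 0% of rows passed and 2957 of 33297 had an unadjusted p under 0.05. Among the members only CAVIN4 had an unadjusted p under 0.05. CAV1 showed the largest difference between the NpBI-206AS arrays, -0.79 with doxycycline against a NpBI-22 difference of 0.25. Subtracting one from the other gave 1.04 (SE 0.52, interval -0.24 to 2.32, adjusted p = 0.631). CAV3, CAVIN1, CAVIN2 and CAVIN3 differed by 0.16, 0.22, 0.19 and -0.08 between the NpBI-206AS arrays. None of the 6 members was 2-fold apart there, as were 20 of 18417 genes (0.109%).

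Untreated cells of the 2 derivatives were compared to see how far the members vary without induction. CAV1 was 2.74-fold higher in untreated NpBI-206AS than in untreated NpBI-22 cells (9.85 against 8.39 ± 0.58, SD, n = 2; log2 difference 1.46, SE 0.36, 95% confidence interval 0.55 to 2.36). Over all rows this did not pass (limma adjusted p = 0.933); 0% of rows passed and 1145 had an unadjusted p under 0.05, with 0 of 6 members called and CAV1 and CAVIN4 at an unadjusted p under 0.05. Relative to non-induced replicate 2, which shares its prefix, the NpBI-206AS array was 1.04 higher for CAV1. CAVIN4 was lower in untreated NpBI-206AS cells, with an estimate of -0.64 (SE 0.24, interval -1.23 to -0.05, adjusted p = 0.933), and by 0.73 against replicate 2 alone. The 3 arrays of prefix R587, none of them of induced NpBI-22 cells, spanned 7.49 to 8.45 for CAVIN4. The CAV3 estimate was -0.38 (SE 0.26), and those of CAVIN1, CAVIN2 and CAVIN3 lay between -0.15 and 0.11. These contrasts share arrays with the comparisons above and are not independent of them.

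**Figure D3:**
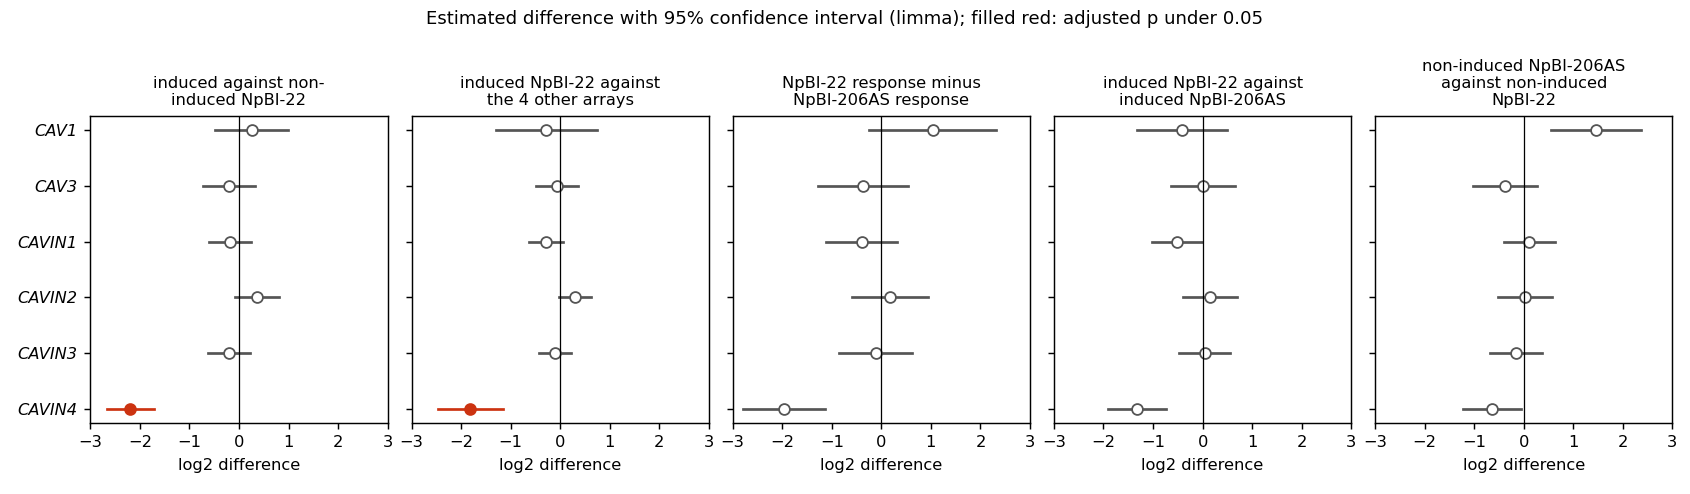
Log2 difference (horizontal axis) with its 95% confidence interval from limma for the 6 measured genes in the 5 contrasts; filled red points have an adjusted p under 0.05. The intervals are not adjusted for the number of rows. CAVIN4 lies below 0 in every panel, from -2.19 to -0.64, and passes in the first 2 panels, while CAV1 ranges from -0.41 to 1.46 and does not pass in any.

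Ordered by group, CAVIN4 was highest in non-induced NpBI-22 cells, followed by non-induced and induced NpBI-206AS cells and, lowest, induced NpBI-22 cells. The 2 NpBI-206AS arrays, 0.23 apart, differed by less than the 2 induced NpBI-22 replicates, which were 0.39 apart. They differed by more than the 2 non-induced NpBI-22 replicates, which were 0.18 apart. CAV1 was highest in non-induced NpBI-206AS cells, followed by induced NpBI-206AS, induced NpBI-22 and non-induced NpBI-22 cells. The last 2 groups did not differ beyond the spread of their replicates, and the step from induced NpBI-206AS cells at 9.06 to the highest induced NpBI-22 replicate at 8.78 was smaller than the 0.83 between the non-induced replicates. For CAV3, CAVIN1, CAVIN2 and CAVIN3 all values lay within 0.61 of each other, and the order of the groups is not resolved by 1 or 2 arrays each.

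Of 6 muscle lineage markers 1 fell in induced NpBI-22 cells and 0 rose, where 2.01% of all rows were lower and 1.59% higher. The fallen one was DES, the intermediate filament of muscle (log2 -1.07, limma adjusted p = 0.0384). The estimates of MYOG, MYOD1 and CHRNA1 were -0.69, -0.53 and -0.21, and those of PAX7 and MYF5 0.33 and 0.04. MYOG read lower in NpBI-206AS cells (8.86 untreated, 8.57 with doxycycline) than in induced NpBI-22 cells (9.50 and 9.01), unlike CAVIN4. The markers' summed level, as log2, was 12.05 and 12.10 in induced and 12.34 and 12.57 in non-induced NpBI-22 cells, and in NpBI-206AS cells 12.16 untreated and 12.35 with doxycycline. Of the markers of other caveola-rich or stromal cells, 0 of 6 endothelial and 0 of 6 adipocyte genes passed in limma (1 and 2 at an unadjusted p under 0.05), with summed levels between 8.05 and 8.29 and between 6.91 and 7.09. Of the endothelial genes, TEK read 7.33 to 7.78, and PECAM1, CDH5, VWF, KDR and TIE1 read 4.80 or less on every array. Of the adipocyte genes, PLIN1 was the highest at 5.24 to 5.40, LEP and CIDEC reached 5.06 and 5.03, and ADIPOQ, LPL and FABP4 read 4.37 or less. Of 5 smooth muscle genes CNN1 rose by 1.13, and of 5 fibroblast genes THY1 rose by 1.51 (adjusted p = 0.0361 and 0.0253), with 2 genes of each list at an unadjusted p under 0.05. In this comparison 7189 of all 33297 rows had an unadjusted p under 0.05. Other genes of these lists had estimates below 0: SMTN, a smooth muscle gene, -0.72 (adjusted p = 0.0754), COL1A1, a collagen gene, -0.37 (adjusted p = 0.537) and PDGFRA -0.07. The remaining genes of these 2 lists had estimates above 0: DCN 0.77 (adjusted p = 0.0911), LUM 0.48, MYH11 0.21, ACTA2 0.17 and TAGLN 0.14. Against the 4 other arrays, limma called SMTN (log2 -0.67, adjusted p = 0.0111), DES (-0.88, 0.017) and LPL (-0.46, 0.0379) lower. It called THY1 (1.33, 0.0058), DCN (1.19, 0.0432) and CNN1 (0.90, 0.021) higher. Of all rows, 7.43% were lower and 6.32% higher there. The summed levels of the smooth muscle and fibroblast lists were 8.18 to 8.28 and 10.75 to 10.96 in induced NpBI-22 cells. They were 7.83 to 8.26 and 10.16 to 10.69 in non-induced NpBI-22 cells, and 8.05 to 8.26 and 10.22 to 10.63 in NpBI-206AS cells. Their part in the CAVIN4 difference was not tested. In such bulk samples, fewer cells of a kind and less RNA per cell cannot be told apart.

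Genes of proteins that work at caveolae were read next. The accessory list held genes of the EHD ATPases and PACSIN proteins of the caveolar neck, of dynamin 2 and of kinases that act on caveolin. It also held those of the flotillins, which form membrane domains of their own. In induced against non-induced NpBI-22 cells, limma called 0 of 14 measured genes, with 2 at an unadjusted p under 0.05. Of all 33297 rows, 7189 had such a p. The list's median log2 difference was 0.07 against 0.01 over all genes. The largest differences were those of FLOT2 and PACSIN3. FLOT2, a flotillin, read 8.84 and 8.62 in induced cells and 7.68 to 8.04 on the other 4 arrays, without overlap. Its difference from non-induced NpBI-22 cells was 0.78 (SE 0.17, adjusted p = 0.0687), and against all 4 other arrays it passed (log2 0.88, adjusted p = 0.0075). PACSIN3, the PACSIN of muscle, read 6.95 and 6.67 against 7.27 to 7.61 on the others, and behaved likewise in the opposite direction (log2 -0.63 and adjusted p = 0.116 against non-induced NpBI-22 cells, log2 -0.64 and adjusted p = 0.0294 against the other 4 arrays). Against the 4 other arrays, FLOT2 and PACSIN3 were the 2 of 14 genes called, 1 higher and 1 lower, near the share over all rows (6.32% higher and 7.43% lower). Without induced replicate 1 neither passed, and without induced replicate 2 or non-induced replicate 2 FLOT2 alone did. Without non-induced replicate 1 the count was 4 of 14, where 7463 of 33297 rows passed. In the doxycycline-matched contrast, the contrast of untreated cells and the difference of responses limma called 0 of the 14. Unadjusted p was under 0.05 for 3, 0 and 0 of them, and for 5217, 1145 and 2957 of 33297 rows.

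A second list held genes of muscle membrane proteins that work with CAV3 or the cavins: the dystrophin complex, membrane repair proteins and T-tubule proteins. Of its 10 measured genes, limma called 2 lower and 0 higher in induced against non-induced NpBI-22 cells. Of all rows, 2.01% were lower and 1.59% higher. The list's median was -0.20 against 0.01 over all genes, and 3 of the 10 estimates were above 0. Unadjusted p was under 0.05 for 5 of the 10, in both directions, and for 7189 of 33297 rows. DYSF encodes dysferlin, which reseals torn muscle membranes. It read 6.49 and 6.51 in induced and 7.76 and 8.16 in non-induced NpBI-22 cells, and in NpBI-206AS cells 8.28 untreated and 8.53 with doxycycline. Both induced NpBI-22 arrays thus lay below every other array. The fall was 2.76-fold (log2 -1.46, SE 0.19, limma adjusted p = 0.026). BIN1 encodes amphiphysin 2, which shapes T-tubules. It read 8.44 and 8.07 in induced NpBI-22 cells and 9.17 to 9.29 on the other 4 arrays, a fall of 1.02 on the log2 scale from non-induced NpBI-22 cells (SE 0.18, adjusted p = 0.0491). The BIN1 call was lost with arrays centred on their medians or with the rows of each gene averaged (adjusted p = 0.0516 and 0.0519), and both calls were lost when any 1 NpBI-22 array was left out.

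Against the doxycycline-treated NpBI-206AS array, DYSF was 4.08-fold lower (log2 -2.03, SE 0.23, limma adjusted p = 0.0487), the 1 gene called of 10. That call was lost under the same 2 settings (adjusted p = 0.0518 and 0.0542) and when any 1 NpBI-22 array was left out. In untreated cells, DYSF had an estimate of 0.32 for NpBI-206AS minus NpBI-22, the opposite sign to the CAVIN4 estimate of -0.64, and limma called 0 of 10 genes, with 0 at an unadjusted p under 0.05. For the NpBI-22 response less that of NpBI-206AS it called 0 of 10, with 3 at an unadjusted p under 0.05. Over all 33297 rows, 1145 and 2957 had an unadjusted p under 0.05 in these 2 contrasts. Against the 4 other arrays, DYSF and BIN1 were lower and DMD, the dystrophin gene, was higher (log2 0.73, adjusted p = 0.024), 3 of 10 genes where 7.43% of all rows were lower and 6.32% higher. Without non-induced replicate 1 the count there was 5 of 10, where 7463 of 33297 rows passed. Without non-induced replicate 2 it was 2, where 2641 rows passed.

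**Figure D4:**
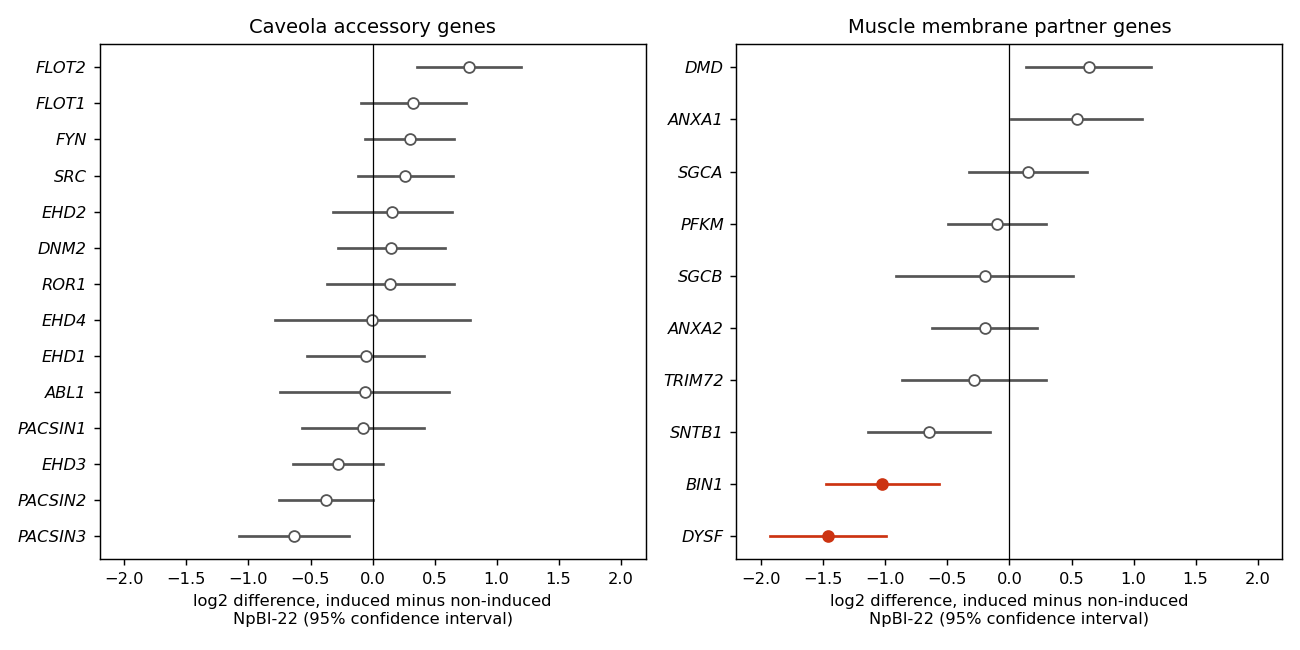
Log2 difference between induced and non-induced NpBI-22 cells with its 95% confidence interval for 14 caveola accessory genes and 10 muscle membrane partner genes, ordered by size; filled red points have an adjusted p under 0.05. DYSF at -1.46 and BIN1 at -1.02 are the genes that pass.

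The genes whose profiles over the 6 arrays were most like those of CAVIN4 and CAV1, the members with a span of at least 1 on the log2 scale, were picked by Pearson r among 2301 genes with such a span. For CAVIN4 these were SNORA70B (r = 0.994), ITGA4 (0.994), an integrin chain, and ARHGAP11B (0.992). ITGA4 read 8.51 and 8.84 in induced and 9.67 and 9.84 in non-induced NpBI-22 cells, with 9.48 and 9.38 in NpBI-206AS cells, the same order of groups as CAVIN4 over a smaller range. For CAV1 the most similar genes were STEAP1 (r = 0.996), a gene of the STEAP family, ZNF665 (0.972) and GADD45A (0.961), a gene of the response to DNA damage. STEAP1 read 4.83 and 5.62 in non-induced and 5.45 and 5.60 in induced NpBI-22 cells, and in NpBI-206AS cells 6.55 untreated and 5.90 with doxycycline. Among the members themselves, r ran from -0.88 for CAVIN2 with CAVIN4 to 0.46 for CAVIN3 with CAVIN4. These values describe 6 arrays that share groups and prefixes.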

How the data were processed

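Total RNA was labelled and hybridised to 1 Affymetrix array per culture. The deposited values are on a log2 scale; per the submitters' processing notes the authors used Partek and RMA, which corrects background, quantile-normalizes and summarises probes, and so hides any shift shared by all transcripts. Versions, build and library file: not given in the sources used here. There are no detection calls, and the number of arrays limits precision.

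Rows were named through the platform annotation, with symbols updated by gene ID (GRCh38.p14): 19460 of 33297 rows had 1 symbol, 1754 several and 12083 none. The brightest row stood for a gene. Groups came from the sample titles. Tests used limma 3.58.1 in R 4.3.3, two-sided, adjusted by Benjamini-Hochberg across the 33297 rows, with calls at 0.05. A mean per group was fitted over all 6 arrays (2 residual and 3.62 prior degrees of freedom), or 2 means for the comparison with the 4 other arrays. The models were tested on simulated data.

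The members, gene lists and settings were chosen with earlier results of these data known. Named genes were all members, up to 4 called genes per list or else the 2 largest differences, the 3 profiles most like a member, MIR22HG, and the markers. DMD was named after its values were seen. Alternatives were other normalizations, a dim-row filter, an intensity trend, averaged rows, single arrays left out, prefix subsets and blocks.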

Additional observations from a re-analysis of the deposited data

How the results depend on the processing

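CAVIN4 was called in the 9 other settings of the main comparison, apart from the fits without 1 NpBI-22 array. These are not 9 separate checks. The fit of only the 4 NpBI-22 arrays repeats the main fit, since a group of 1 array adds nothing to the estimated spread. In another the 3 R587 arrays, which include both NpBI-206AS arrays, served as the control (log2 -1.72). That fit is the comparison with the 4 other arrays without non-induced replicate 1. The others used both replicates of each NpBI-22 group (-2.21 to -2.12). CAVIN4 was also called in all 7 of the comparison with the 4 other arrays (-1.86 to -1.75). In each comparison 1 member was called. With 1 NpBI-22 array left out, the number of members called was 0 in the first and 0 to 1 in the second, and 0 in the contrasts of the 2 lines' responses, of doxycycline-treated and of untreated cells. Of the 2 lists, the partner count was then 0 in the first and 2 to 5 in the second, the accessory count 0 and 0 to 4, and both 0 in the doxycycline-matched contrast. The highest counts, 5 and 4, came without non-induced replicate 1, where 7463 of 33297 rows passed. With fewer arrays these fits have fewer residual degrees of freedom. Estimates that changed sign when 1 array was left out, in no case called, ran as follows. After induction, CAV1 ran from -0.16 to 0.67 and CAV3 from -0.44 to 0.022. Against the 4 other arrays, CAV3 ran from -0.18 to 0.067 and CAVIN3 from -0.23 to 0.035. Against induced NpBI-206AS cells, CAV3 ran from -0.11 to 0.13, CAVIN2 from -0.011 to 0.31 and CAVIN3 from -0.10 to 0.17. In untreated cells, CAVIN1 ran from -0.025 to 0.25 and CAVIN2 from -0.046 to 0.085. For the difference of responses, CAVIN3 ran from -0.25 to 0.0197.

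Other settings changed these values, and the cause was not tested. Without the dimmest 50 percent of rows, 1 member (CAVIN4) was called against induced NpBI-206AS cells, 1 accessory gene (FLOT2) was called in the main comparison, and rows called rose from 1200 to 2609. CAV3, CAVIN2 and CAVIN3 are among the rows left out and have no value there. With arrays centred on their medians or rows averaged, 1 partner gene was called in the main comparison and 0 against induced NpBI-206AS cells. Against the R587 arrays alone, 4 of 14 accessory and 5 of 10 partner genes were called, where 7463 of all 33297 rows were. CAV1 was -0.59 there, opposite in sign. With the prefix as a random block (correlation 0.367), 1 accessory gene was called against the 4 other arrays; for the main comparison that correlation could not be estimated. Centring turned CAV3 against the 4 other arrays to 0.00099.

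The replicate numbers only number the cultures. With the replicate block, 1 member was called, CAVIN4 (log2 -2.19, adjusted p = 0.0067), 1 accessory gene (FLOT2) and 2 partner genes, and rows called rose to 2955. Deviations of same-numbered arrays correlated at 0.196.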

Other observations

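The nearest genes on either side of each member with a row of their own, by RefSeq order in GRCh38.p14, were read after the values of the members had been seen. Beside CAVIN4 on chromosome 9, TEX10 and PLPPR1 differed by -0.02 and 0.05 on the log2 scale between induced and non-induced NpBI-22 cells (limma adjusted p = 0.966 and 0.909), against -2.19 for CAVIN4. On chromosome 7, CAV2 lies beside CAV1 but has no row of its own and was passed over. The genes read there were TES, a focal adhesion gene, and MET, the receptor of hepatocyte growth factor. In untreated NpBI-206AS against untreated NpBI-22 cells they had estimates of 0.07 and 0.47 (adjusted p = 0.972 and 0.933), where CAV1 had 1.46. After induction of NpBI-22 cells TES had an estimate of 0.47 (adjusted p = 0.193). Among the neighbours of the other members, STAT3 beside CAVIN1 had the largest estimate after induction, -0.58 (adjusted p = 0.129). Over the 12 neighbours, adjusted p was 0.129 or more after induction and 0.933 or more between untreated cells.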
